A study of Mus musculus with 12 samples.

Results

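The interferon response genes described here are 38 of the 55421 genes counted in mouse liver. They were chosen by symbol, as genes known to be induced by interferons, and each of the 38 symbols matched 1 row of the count table. All 38 passed the filter on low counts and were among the 14076 genes tested. Livers came from adult male C57BL/6 mice of 2 strains, Fra1hep and Fra2hep, in which removal of doxycycline switches on a transgene. The transgene encodes Fra-1 (gene Fosl1) or Fra-2 (gene Fosl2), both Fos-family subunits of the transcription factor AP-1. The 4 groups were Fra1 controls, Fra1 mutants, Fra2 controls and Fra2 mutants, with 3 animals and 1 library each. Doxycycline was removed at 3 weeks of age in every mouse. Controls were littermates that shared the mutants' cage and drug withdrawal. Their alleles and the promoter that drives the transgene were not given in the sources used here. Titles and design text place sampling 2 months later, but the treatment label of the 3 Fra2 mutants says 9 months, so in that strain age and transgene cannot be told apart if the label is right.

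Interferons are secreted proteins that warn cells of infection. Type I and type III interferons act through a complex that contains STAT2 and IRF9 and binds the interferon-stimulated response element (ISRE) in promoters. Interferon gamma, made mainly by T cells and natural killer cells, acts on the gamma-activated site (GAS) and strongly induces IRF1, guanylate-binding proteins and immunity-related GTPases. Hepatocytes and Kupffer cells, the resident macrophages of the liver, both respond to these signals.

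Library totals ran from 16834041 to 20464807 counts, and levels are given as CPM, which are counts scaled to the size of each library. As a check of the labels, Fra1 mutants 1, 2 and 3 held 172, 193 and 252 counts of Fosl1 and their controls 0, 0 and 1. Fosl2 stood at 398 to 421 CPM in the Fra2 mutants and at 12.2, 48.1 and 16.03 CPM in Fra2 controls 1, 2 and 3. Fra2 control 1 also held 11 Fosl1 counts and control 2 had the raised Fosl2 value. The median of the 38 genes, the Oasl1 call over both strains and the Stat2 and Irf1 estimates are also given without these controls. Other Fra2 estimates are not given without both controls, and some of them moved when 1 of these controls was left out. The 8 hepatocyte markers, albumin included, were detected in all 12 libraries, which the labels call liver and mostly hepatocyte. The livers are a mixture of cells, so fewer cells of a type and less RNA per cell cannot be told apart.

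Promoter sequences of 7 of these genes are shown first, because the motifs that interferon signalling acts on can be read in them. They are the 150 bases before the transcript start, 5′ to 3′ on the strand of the gene, from RefSeq (GRCm38.p6). Capitals mark matches, on either strand, to the ISRE core (GAAA, any 2 bases, GAAA), to the GAS TTCNNNGAA and to the AP-1 site TGANTCA; on the other strand the ISRE core reads TTTC, any 2 bases, TTTC.
Isg15 (chr4:156200819-156200968, minus strand): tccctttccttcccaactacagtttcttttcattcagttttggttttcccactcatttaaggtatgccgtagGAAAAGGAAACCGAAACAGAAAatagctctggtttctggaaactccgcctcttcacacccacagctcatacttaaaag
Ifit1 (chr19:34640739-34640888, plus strand): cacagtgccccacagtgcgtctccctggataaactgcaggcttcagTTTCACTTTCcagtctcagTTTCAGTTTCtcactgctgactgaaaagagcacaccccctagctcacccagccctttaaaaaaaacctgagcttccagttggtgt
Rsad2 (chr12:26456453-26456602, minus strand): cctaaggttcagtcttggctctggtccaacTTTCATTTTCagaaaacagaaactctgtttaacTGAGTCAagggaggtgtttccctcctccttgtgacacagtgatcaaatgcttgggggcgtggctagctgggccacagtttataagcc
Gbp2 (chr3:142620513-142620662, plus strand): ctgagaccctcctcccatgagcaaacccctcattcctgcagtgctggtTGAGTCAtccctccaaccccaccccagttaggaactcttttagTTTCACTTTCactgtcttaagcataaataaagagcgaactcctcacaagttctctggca
Igtp (chr11:58199406-58199555, plus strand): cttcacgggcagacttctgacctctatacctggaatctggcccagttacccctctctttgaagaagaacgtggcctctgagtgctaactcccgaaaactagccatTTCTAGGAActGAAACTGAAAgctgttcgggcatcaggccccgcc
Irf1 (chr11:53769864-53770013, plus strand): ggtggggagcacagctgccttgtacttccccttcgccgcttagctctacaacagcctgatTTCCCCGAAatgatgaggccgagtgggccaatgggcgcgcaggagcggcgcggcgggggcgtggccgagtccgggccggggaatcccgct
Oasl1 (chr5:114923090-114923239, plus strand): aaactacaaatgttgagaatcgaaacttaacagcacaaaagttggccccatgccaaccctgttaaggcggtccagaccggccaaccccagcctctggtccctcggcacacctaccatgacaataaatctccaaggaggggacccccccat

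Isg15 carries a run of overlapping ISRE cores, and Ifit1 carries a pair of separate ones. Rsad2 and Gbp2 each have an ISRE core and an AP-1 site. Igtp has a GAS beside an ISRE core, Irf1 has a GAS, and Oasl1 has no match to these letters. RefSeq windows of 300 bases, from 250 before to 50 after the start, were given for 30 of the 38 genes. The ISRE core was found in 16 of the 30 (53.3%), against 3.99% of 27025 genes with such a window. With a stricter form, in which a C follows the core, it was found in 11 (36.7%), against 0.944%. GAS matches were found in 8 (26.7%), against 9.55%, and AP-1 matches in 6 (20%), against 8.97%. ISRE matches numbered 24, with a median position of -69 over all of them; 23 lay before the start, and 1 shared bases with a GAS match. Both motifs were present in 5 genes, namely Bst2, Oas1a, Gbp7, Igtp and Irgm2, and neither in 11. A match is a description of the letters and does not show that a factor binds there.

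**Figure D1:**
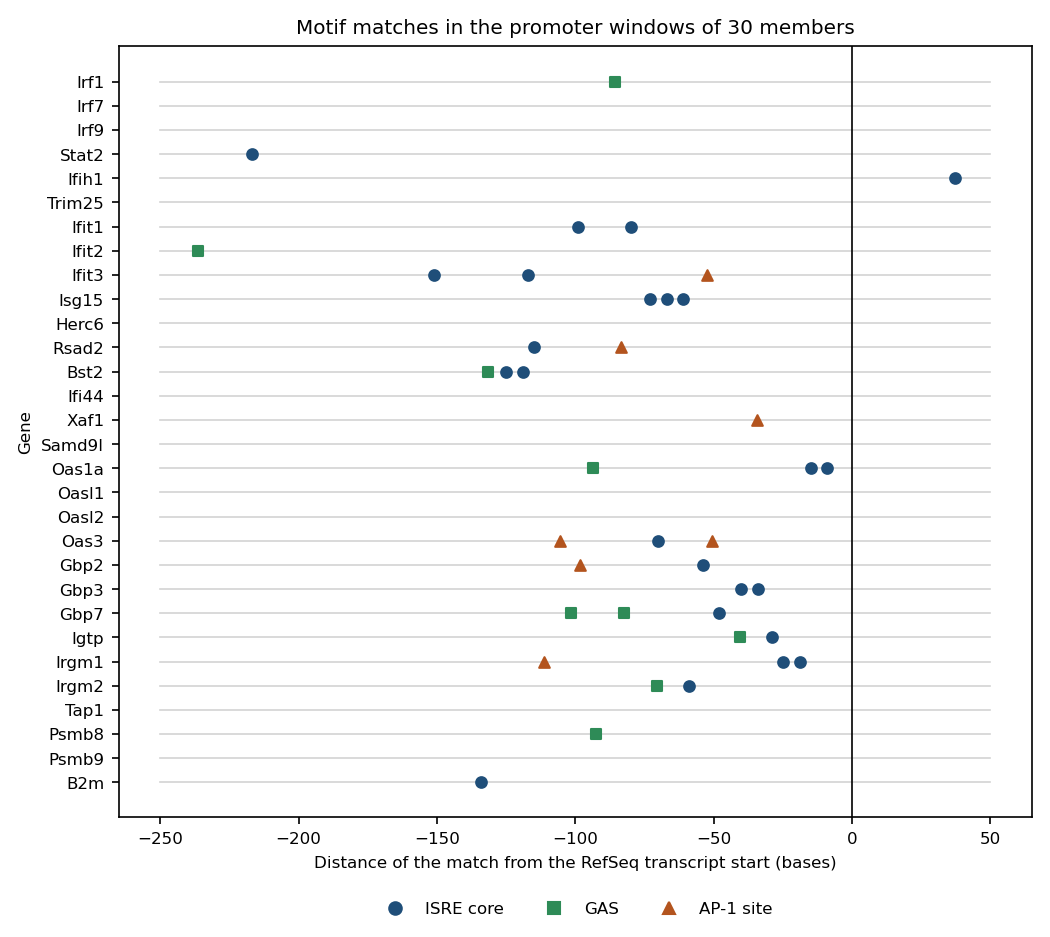
Motif matches in the RefSeq windows of 30 interferon response genes; the x axis is the distance from the transcript start in bases, each row is a gene, and circles, squares and triangles mark ISRE cores, GAS and AP-1 matches on either strand, with genes that have more than 1 window drawn on 1 line. Of the 24 ISRE matches, 23 lie before the start.

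Of the 38 genes, Oasl1, which encodes an oligoadenylate synthetase-like protein, was the one called, 3.90-fold higher in mutants over both strains. In the Fra1 contrast no interferon response gene passed an adjusted p of 0.05 in edgeR's quasi-likelihood test, whereas 3.84% of all genes tested did. At an unadjusted p under 0.05 there were 4 of 38, against 16.3% of all genes, and DESeq2 called 1, Oasl1. In the Fra2 contrast none passed either, against 1.07% of all genes. Unadjusted, there were again 4 of 38, against 11.5% of all genes, and DESeq2 again called only Oasl1. The shares of all genes are edgeR's, and those of DESeq2 are not given here. The mean effect of both strains, which uses all 12 libraries, gave 1 call, Oasl1, higher in mutants, against 6.24% of all genes called and 4.33% called higher.

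The median log2 fold change of the 38 genes was -0.02 in Fra1 mutants and 0.11 in Fra2 mutants, beside 0.01 and -0.01 over all genes tested. Estimates were above 0 for 17 of the 38 in Fra1 and for 27 of the 38 in Fra2, beside 51.0% and 49.1% of all genes tested. In Fra1, 6 genes had all mutants below all controls (Irf9, Stat2, Ifit1, Isg15, Bst2 and Rtp4) and none had all mutants above, against 9.98% and 11.7% of all genes. In Fra2, 4 genes had all mutants above all controls (Rsad2, Oasl1, Gbp2 and Gbp7) and none had all below, against 9.31% and 8.17% of all genes. On the log2 scale, 33 of 38 estimates in Fra1 and 34 of 38 in Fra2 lay within 0.5 of 0. Most of the 14076 genes tested did so too, 10905 in Fra1 and 11667 in Fra2.

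**Figure D2:**
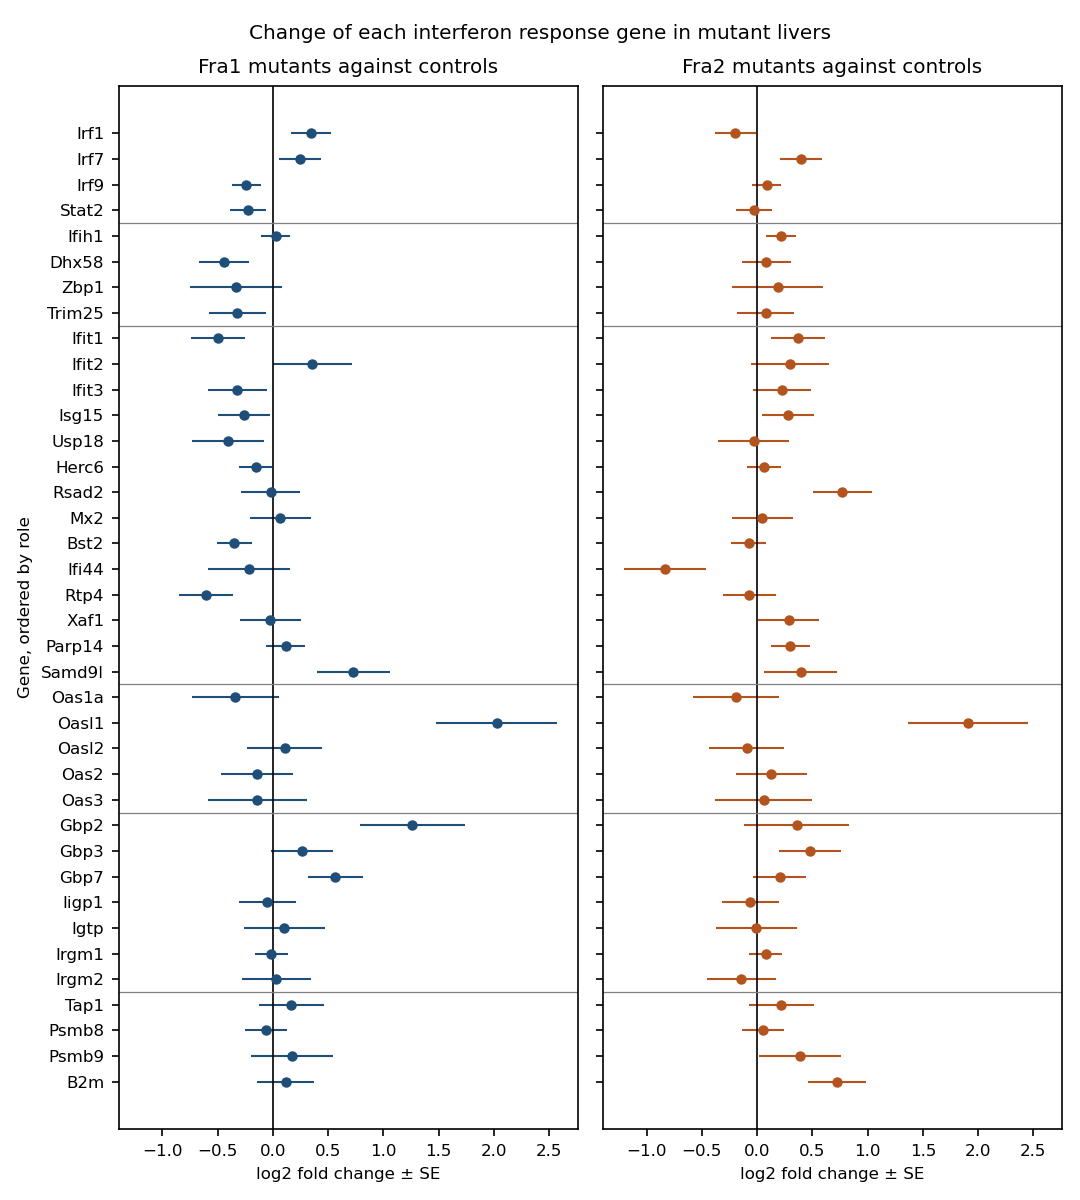
Log2 fold change ± SE of the 38 genes (rows, ordered by role) in Fra1 mutants (left) and Fra2 mutants (right) against their controls, 3 animals a group. Oasl1 stands at 2.02 and 1.91, while 33 and 34 of the 38 genes lie within 0.5 of 0, beside 10905 and 11667 of the 14076 genes tested.

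In single libraries many of the genes were high together. Fra2 control 1 was the highest of the Fra2 controls for 29 of the 38 genes, against 33.3% of all genes tested, and Fra2 control 3 was the highest for 1. Without Fra2 control 1 the median of the Fra2 contrast went from 0.11 to 0.32, and without controls 1 and 2 together to 0.44, with 1 control library left. In that contrast no gene of the 38 was called without control 1. The summed level of the 10 Kupffer cell markers was 715 CPM in Fra2 control 1 and 297 and 587 CPM in controls 2 and 3. It ran from 451 to 749 CPM in Fra2 mutants, from 366 to 572 in Fra1 controls and from 383 to 541 in Fra1 mutants, with no marker of the list at 0, and its part in the interferon values was not tested. Fra2 mutant 3 was the highest of all 12 libraries for 9 of the 38 genes, against 4.06% of all genes tested, and Fra2 control 1 for 8, against 7.30%. Fra1 mutant 2 was the highest for 8, against 13.7% of all genes, and Fra2 mutant 1 for 6, against 7.197%.

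**Figure D3:**
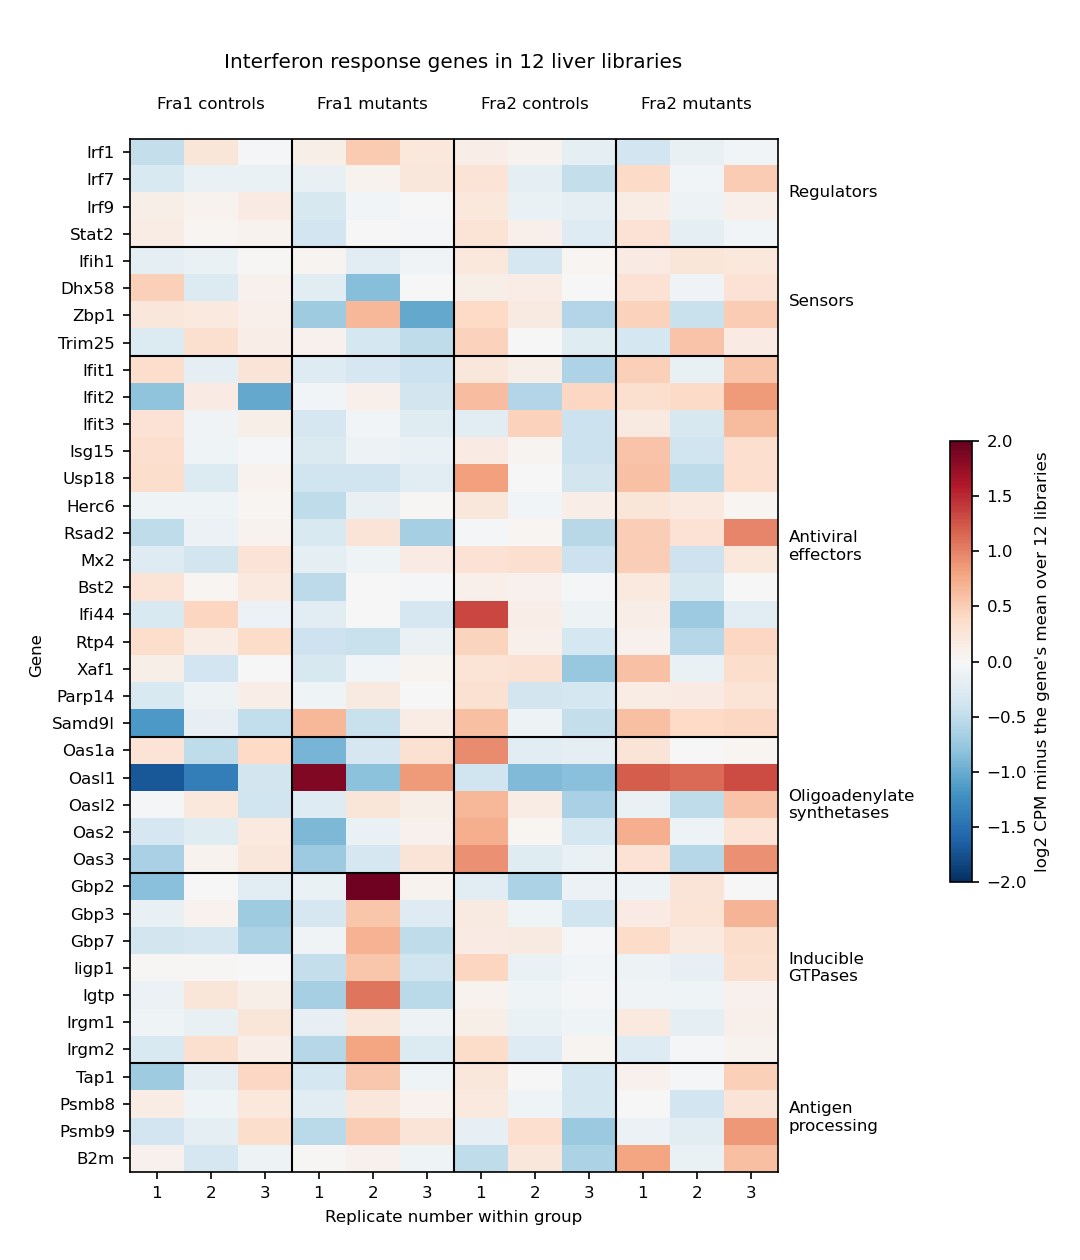
Level of each gene (rows, by role) in each library (columns, by group and replicate number) as log2 CPM minus the gene's mean over the 12 libraries; red is higher and blue is lower. Oasl1 is high in 5 of the 6 mutants, Fra1 mutant 2 stands out for the inducible GTPases, and Fra2 control 1 is the highest of its group for 29 of the 38 genes.

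The 4 regulators changed by less than the spread between animals allows to call. Irf9, the DNA-binding subunit of the type I complex, stood at 51.1, 49.1 and 52.6 CPM in Fra1 controls and at 37.6, 45.3 and 46.5 CPM in Fra1 mutants. All 3 mutants were lower, with a log2 fold change of -0.24 ± 0.13 (SE; adjusted p = 0.390). In Fra2, Irf9 was at 54.1, 42.8 and 40.9 CPM in controls and at 52.1, 43.5 and 50.6 CPM in mutants, which overlap (0.08 ± 0.13, adjusted p = 0.875). Stat2, its partner in that complex, was at 110.5, 102 and 105 CPM in Fra1 controls and at 76.3, 99.3 and 96.7 CPM in Fra1 mutants. These groups did not overlap either, and the estimate was -0.22 ± 0.16 (adjusted p = 0.543). Fra2 controls held 121, 107 and 83.4 CPM of Stat2 and Fra2 mutants 121, 87.8 and 96.5 CPM, an estimate of -0.03 ± 0.16 (adjusted p = 0.974) whose sign turned in some settings.

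Irf7, which amplifies type I interferon production, read 50.6, 56.7 and 57.04 CPM in Fra1 controls and 56.3, 65.7 and 72.6 CPM in Fra1 mutants (0.24 ± 0.19, adjusted p = 0.580). Its Fra2 values were 75.1, 54.6 and 44.7 CPM in controls and 81.1, 60.3 and 88.5 CPM in mutants (0.40 ± 0.19, adjusted p = 0.466). With 1 library left out, that estimate ran from 0.24 (without Fra2 control 3) to 0.63 (without Fra2 control 1). The groups overlapped in both strains. Over both strains the Irf7 estimate was 0.32 ± 0.14, with an adjusted p of 0.214. Irf1, an early target of interferon gamma, was at 33.8, 56.0 and 46.7 CPM in Fra1 controls and at 51.0, 67.9 and 54.5 CPM in Fra1 mutants (0.34 ± 0.18, adjusted p = 0.379). In Fra2 it was at 51.9, 49.7 and 41.1 CPM in controls and at 36.3, 42.9 and 45.3 CPM in mutants (-0.20 ± 0.18, adjusted p = 0.764). Irf1 thus had estimates of opposite sign in the strains, and their difference, -0.54 ± 0.26, did not pass (adjusted p = 0.796).

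The 4 sensors and their partners gave no call in either strain. Ifih1 encodes the cytoplasmic sensor of long double-stranded RNA, Dhx58 its relative LGP2, Zbp1 a sensor of Z-form nucleic acid, and Trim25 a ubiquitin ligase of the RIG-I pathway. Their estimates ran from -0.44 to 0.02 in Fra1 and from 0.08 to 0.22 in Fra2, with adjusted p of at least 0.362. Zbp1 was uneven among the Fra1 mutants, at 7.06, 18.3 and 5.69 CPM, against 13.5, 13.2 and 12.4 CPM in their controls. Fra1 mutant 2 was thus above all 3 controls and the other mutants below them.

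The 14 antiviral effectors had a median of -0.19 in Fra1 and 0.25 in Fra2, and no call. Of their estimates, 10 of 14 were below 0 in Fra1 and 10 of 14 above 0 in Fra2. Over all genes tested, 51.0% were above 0 in Fra1 and 49.1% in Fra2. Isg15, a ubiquitin-like protein, had 17.4, 13.0 and 13.6 CPM in Fra1 controls and 11.3, 12.8 and 12.5 CPM in Fra1 mutants. The mutants lay just below the controls (-0.26 ± 0.24, adjusted p = 0.634). In Fra2 it had 15.4, 14.3 and 10.2 CPM in controls and 20.6, 10.5 and 17.4 CPM in mutants, which overlap (0.28 ± 0.23, adjusted p = 0.737). Ifit1, which binds foreign RNA, was at 16.9, 11.5 and 15.9 CPM in Fra1 controls and at 11.1, 10.5 and 9.80 CPM in Fra1 mutants. All 3 mutants were again lower (-0.50 ± 0.25, adjusted p = 0.343). Its Fra2 values, 15.6, 14.4 and 8.64 CPM in controls and 18.4, 11.9 and 19.6 CPM in mutants, overlapped (0.37 ± 0.24, adjusted p = 0.640).

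Rtp4, a chaperone of cell-surface receptors, had the largest negative estimate of the 38 genes in Fra1. It was at 22.99, 19.9 and 23.2 CPM in controls and at 13.6, 13.3 and 16.5 CPM in mutants, groups that did not overlap (-0.61 ± 0.24, adjusted p = 0.235). In Fra2 it read 24.6, 19.5 and 14.1 CPM in controls and 19.1, 12.2 and 24.1 CPM in mutants (-0.07 ± 0.24, adjusted p = 0.953). Bst2, the tetherin that holds budding virus at the membrane, was at 176, 149.8 and 167 CPM in Fra1 controls and at 101, 145 and 141 CPM in Fra1 mutants. The mutants were lower in each case (-0.35 ± 0.16, adjusted p = 0.309). Bst2 in Fra2 read 156, 154 and 143 CPM in controls and 167, 117 and 145 CPM in mutants, which overlap (-0.08 ± 0.16, adjusted p = 0.912). Samd9l, a restriction factor, was at 9.08, 18.03 and 14.4 CPM in Fra1 controls and at 31.9, 14.8 and 22.3 CPM in mutants, with 1 mutant inside the control range (0.73 ± 0.33, adjusted p = 0.307). Fra2 controls had 30.5, 18.8 and 14.5 CPM of Samd9l and Fra2 mutants 30.6, 26.5 and 26.7 CPM (0.39 ± 0.33, adjusted p = 0.732).

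Rsad2 encodes viperin, a radical enzyme that makes an antiviral nucleotide. It stood at 13.7, 14.3 and 9.45 CPM in Fra2 controls and at 19.5, 17.0 and 27.4 CPM in Fra2 mutants. All 3 mutants were higher, by 0.77 ± 0.27 on the log2 scale, but the adjusted p was 0.264. In Fra1 it read 9.80, 12.8 and 14.6 CPM in controls and 11.2, 16.6 and 8.79 CPM in mutants, which overlap (-0.02 ± 0.27, adjusted p = 0.980). Ifi44 had the largest negative estimate in Fra2, with 12.6, 5.47 and 4.64 CPM in controls and 5.49, 3.00 and 4.26 CPM in mutants (-0.84 ± 0.37, adjusted p = 0.418). That estimate rested on Fra2 control 1, since without it the value was -0.25. Fra1 values of Ifi44 were 4.05, 6.68 and 4.57 CPM in controls and 4.32, 4.95 and 3.96 CPM in mutants (-0.21 ± 0.37, adjusted p = 0.838). The other 7 effectors were Ifit2, Ifit3, Usp18, Herc6, Mx2, Xaf1 and Parp14. Among them Ifit2 and Ifit3 are relatives of Ifit1, and Usp18 removes Isg15 from proteins and dampens type I receptor signalling. Mx2 belongs to a family of dynamin-like GTPases. The gene type given with the counts is polymorphic pseudogene for Mx2, so its counts need not stand for a working protein. Estimates of these 7 genes ran from -0.41 to 0.36 in Fra1 and from -0.03 to 0.30 in Fra2, and their groups overlapped in both strains.

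Oasl1 rose in the mutants over both strains, and no other gene of its family passed the test. Oasl1 encodes an oligoadenylate synthetase-like protein known to restrain translation of Irf7. It spans chr5:114923240-114937915 on the plus strand (GRCm38, GENCODE M21). Fra1 controls had 8.69, 10.8 and 21.8 CPM and Fra1 mutants 102, 15.9 and 50.9 CPM. Mutants 1 and 3 were above every control, and mutant 2 lay inside the control range. Fra2 controls had 21.3, 15.3 and 15.8 CPM and Fra2 mutants 65.1, 61.4 and 69.6 CPM, groups that were far apart. The log2 fold change was 2.02 ± 0.55 in Fra1 (adjusted p = 0.0737) and 1.91 ± 0.54 in Fra2 (adjusted p = 0.161). Over both strains it was 1.96 ± 0.38, or 3.90-fold, and passed with an adjusted p of 0.0121 in edgeR's quasi-likelihood test. That call was kept in each of the 12 fits that left out 1 library. The strains' effects differed by -0.12 ± 0.75 (adjusted p = 0.994).

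In each strain alone the call depended on the setting. DESeq2 gave adjusted p of 0.00163 in Fra1 and 0.00756 in Fra2, and a fit of the 6 Fra2 libraries alone gave 0.00579. Without Fra1 mutant 2 the Fra1 estimate was 2.47, with an adjusted p of 0.00527, and without Fra1 mutant 1 it was 1.27 and did not pass. The Fra1 mutants spanned a 6.42-fold range for Oasl1, the widest within any group among the 38 genes. Without any filter on low counts the call over both strains was lost (adjusted p = 0.0604), as it was without Fra2 controls 1 and 2 (adjusted p = 0.126). A non-coding gene, Gm13822, shares exonic bases with Oasl1 on the opposite strand, and no source used here says whether strand was used in counting.

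The other 4 family members, Oas1a, Oas2, Oas3 and Oasl2, had estimates from -0.34 to 0.11 in Fra1 and from -0.19 to 0.13 in Fra2, and none passed. Oas1a, Oas2 and Oas3 make the second messenger that activates RNase L. The gene Oasl2 lies beside Oasl1 on the chromosome and is also named as oligoadenylate synthetase-like. Oasl2 was at 9.08, 10.7 and 7.05 CPM in Fra1 controls and at 7.77, 11.01 and 10.1 CPM in Fra1 mutants. Its Fra2 values were 14.6, 10.3 and 5.94 CPM in controls and 8.47, 6.54 and 13.8 CPM in mutants, and the groups overlapped in both strains. Reads that match several genes of this family could be shared among them, so their counts are uncertain.

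**Figure D4:**
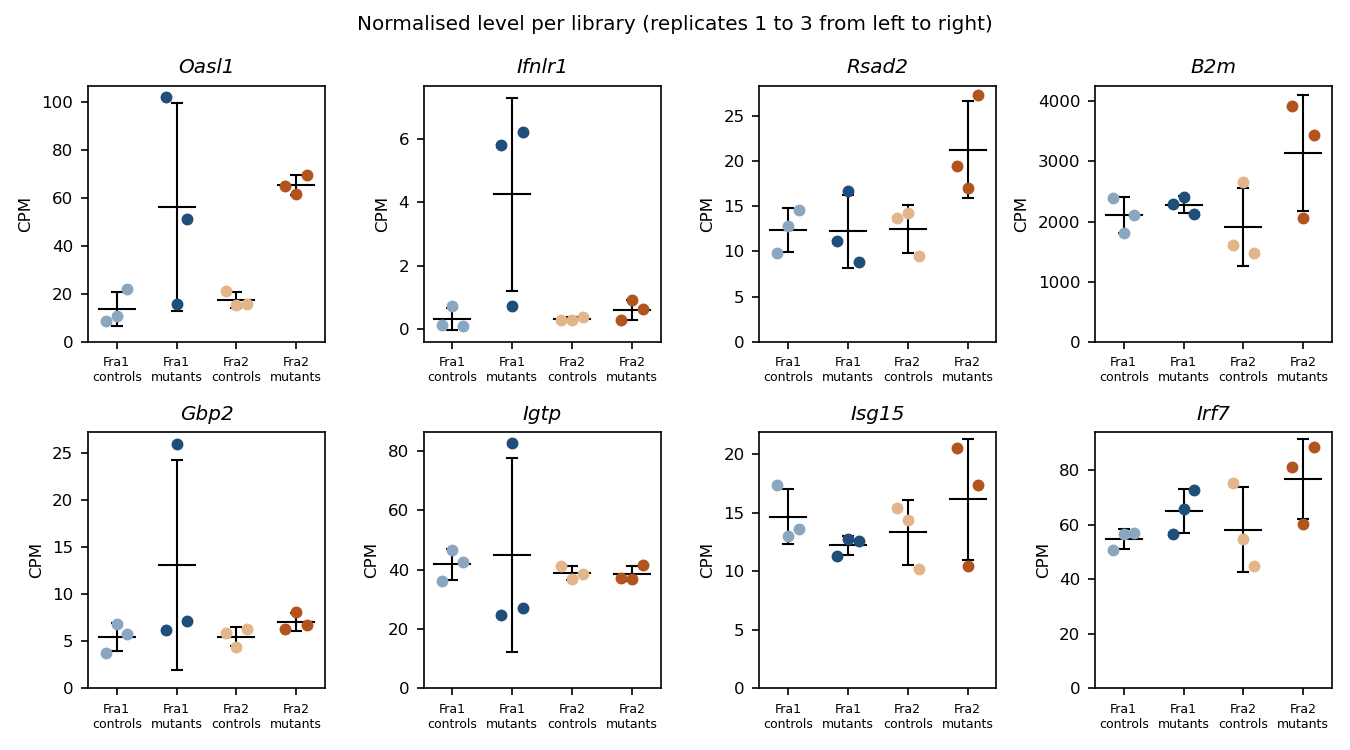
Level in CPM (y axis, linear) of 8 genes in each library; points are replicates 1 to 3 from left to right, the horizontal line is the group mean and the bar is 1 SD (n = 3), which reaches below 0 where the spread exceeds the mean. Oasl1 is at 61.4 to 69.6 CPM in Fra2 mutants against 15.3 to 21.3 in their controls, and Gbp2 and Igtp are high in Fra1 mutant 2.

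The interferon-inducible GTPases, which attack vacuoles of intracellular microbes, were set apart by 1 animal, Fra1 mutant 2. It was the highest of its group for 7 of 7, against 36.2% of all genes tested. Among all 12 libraries it was the highest for 5 of 7, against 13.7% of all genes tested. The same library was the highest of all 12 for 7 of 10 signalling genes of the pathway outside the list. Gbp2, a guanylate-binding protein, read 3.79, 6.78 and 5.76 CPM in Fra1 controls and 6.18, 25.96 and 7.11 CPM in Fra1 mutants. The Fra1 estimate was 1.26 ± 0.47 (adjusted p = 0.202), and without Fra1 mutant 2 it was 0.28. Fra2 controls had 5.85, 4.35 and 6.26 CPM of Gbp2 and mutants 6.31, 8.13 and 6.70 CPM, groups that just failed to overlap (0.36 ± 0.48, adjusted p = 0.847). Gbp7, of the same protein family, had 9.14, 9.38 and 7.64 CPM in Fra1 controls and 11.3, 19.1 and 8.28 CPM in mutants (0.56 ± 0.25, adjusted p = 0.280), or 0.17 without Fra1 mutant 2. In Fra2 it had 13.3, 13.3 and 11.6 CPM in controls and 15.2, 13.5 and 15.1 CPM in mutants, again just apart (0.20 ± 0.24, adjusted p = 0.825). Gbp3 was at 12.4, 10.2 and 8.21 CPM in Fra2 controls and at 12.1, 13.2 and 17.5 CPM in Fra2 mutants, which overlap (0.48 ± 0.28, adjusted p = 0.577). Its Fra1 estimate was 0.27 ± 0.28 (adjusted p = 0.698).

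Igtp, also known as Irgm3, is an immunity-related GTPase that stood at 36.2, 46.6 and 42.5 CPM in Fra1 controls and at 24.8, 82.7 and 27.1 CPM in Fra1 mutants. The mutants therefore lay on both sides of the controls, and the estimate was 0.10 ± 0.37 (adjusted p = 0.923). Without Fra1 mutant 2 it turned to -0.69 and passed (adjusted p = 0.0163), beside 2.96% of all genes called in that fit and 0.628% called lower. Fra2 values of Igtp were even, at 41.2, 36.9 and 38.4 CPM in controls and at 37.3, 36.9 and 41.6 CPM in mutants. Irgm2 followed Igtp, with 50.7, 78.0 and 68.5 CPM in Fra1 controls and 42.0, 108 and 51.8 CPM in Fra1 mutants. These genes share exonic bases on the same strand, so their counts may not be independent. Iigp1 read 380.1, 379.6 and 377 CPM in Fra1 controls and 268, 546 and 283 CPM in Fra1 mutants, so that 3 nearly equal controls lay between the mutants. Irgm1, by contrast, differed by 1.35-fold between the highest and the lowest of the 12 libraries.

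Some chemokines, class II genes and lymphocyte markers were also highest in Fra1 mutant 2. All 4 antigen processing genes of the 38 were at their highest among Fra1 mutants there, against 36.2% of all genes tested. The chemokines Cxcl9 and Cxcl10, which attract T cells, stood at 44.4 and 14.01 CPM in it. In the other Fra1 mutants Cxcl9 was at 7.22 and 9.90 CPM and Cxcl10 at 2.08 and 2.39 CPM. The chemokine Ccl5 went the same way, with a Fra1 estimate of 0.82 with Fra1 mutant 2 and -0.15 without it. Cxcl11 did not, with -0.53 with that library and -0.31 without it. The summed level of 4 class II genes (H2-Aa, H2-Ab1, H2-Eb1 and Cd74) was 625 CPM in Fra1 mutant 2 and 158 to 324 CPM in the other 11 libraries. The 9 T cell markers summed to 15.6 CPM in it, against 8.53 and 11.3 CPM in the other Fra1 mutants, 6.20 to 8.45 in Fra1 controls, 6.59 to 9.39 in Fra2 controls and 7.09 to 10.4 in Fra2 mutants, with none at 0. The 7 natural killer cell markers summed to 6.48 CPM in it and to 1.85 to 3.14 CPM elsewhere, with 1 of the 7 at 0 in some of those libraries. B cell markers, 5 in number, summed to 55.9 CPM in it and to 28.2 and 20.1 CPM in Fra1 mutants 1 and 3. That sum was higher still in Fra2 control 2 (73.4 CPM) and in Fra2 mutants 1 and 2 (72.7 and 58.9 CPM). Recruited myeloid markers, 9 in number with none at 0, were each highest among Fra1 mutants in mutant 2, against 36.2% of all genes tested. Of the 9, 6 were highest there of all 12 libraries, against 13.7% of all genes tested. The 9 markers summed to 376 CPM in Fra1 mutant 2, against 216 and 206 CPM in the other Fra1 mutants. Their sum was 131 to 202 CPM in Fra1 controls, 107 to 209 in Fra2 controls and 296 to 381 in Fra2 mutants. In the opposite direction, the 5 cholangiocyte markers summed to 28.7 CPM in Fra1 mutant 2 and to 321 and 158 CPM in Fra1 mutants 1 and 3. Hepatocyte markers, 8 in number, summed to 115701 CPM in Fra1 mutant 2 and to 78955 and 63591 CPM in Fra1 mutants 1 and 3. Fra1 controls had hepatocyte sums of 96231 to 135926 CPM. In Fra2 the sums were 114212 to 138585 CPM in controls and lower, at 72601.7 to 80976.5 CPM, in all mutants. The part of these cells in the GTPase values was not tested. Among the recruited myeloid markers, Mpeg1 was called in both strains in edgeR's quasi-likelihood test, with all mutants above all controls. Its log2 fold change was 1.16 ± 0.25 in Fra1 (adjusted p = 0.0228) and 1.51 ± 0.25 in Fra2 (adjusted p = 0.0165). By the same test the stellate marker Dcn was called in Fra1 (0.86 ± 0.12, adjusted p = 0.00239) and not in Fra2 (-0.23 ± 0.12, adjusted p = 0.526). Of all genes, 3.84% were called in Fra1 and 1.07% in Fra2.

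**Figure D5:**
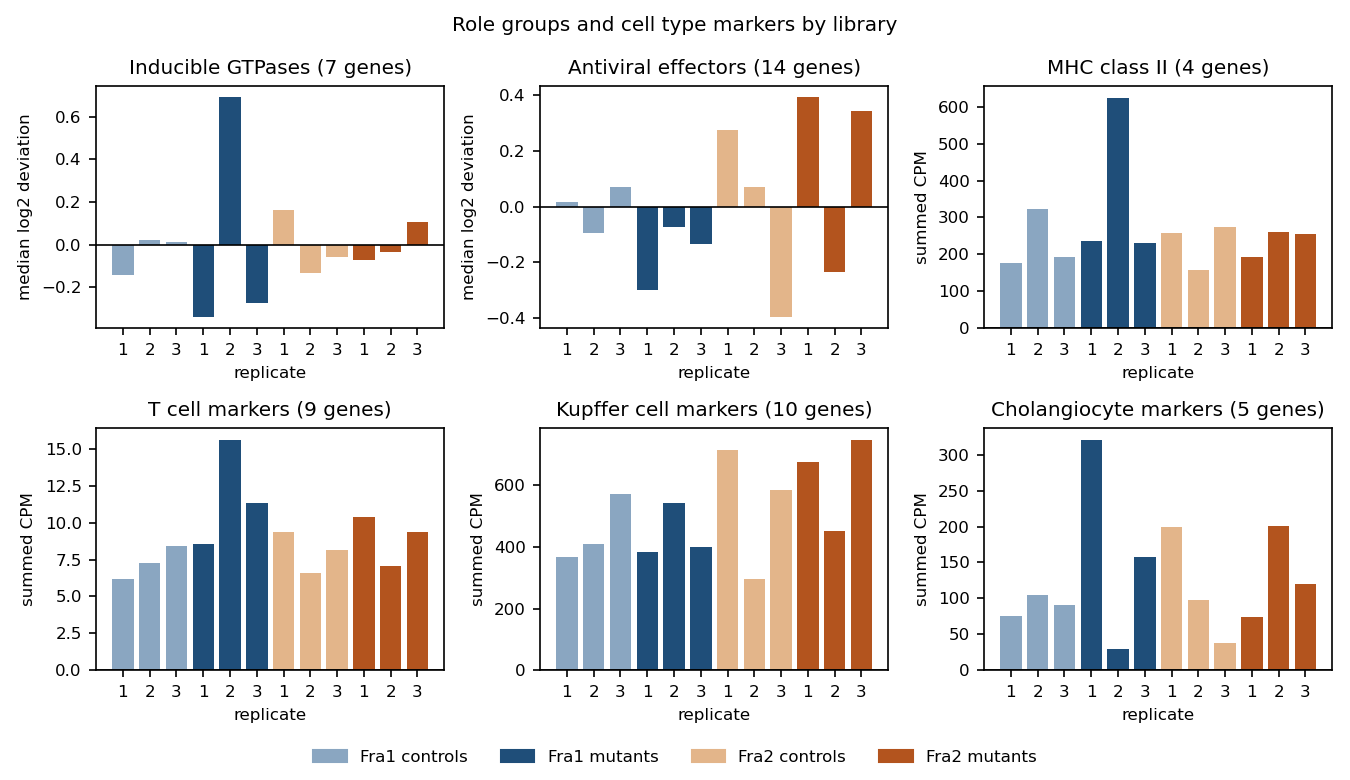
Each bar is 1 library, coloured by group and ordered by replicate number; the upper panels show the median log2 deviation of the 7 GTPases and of the 14 antiviral effectors from each gene's mean over 12 libraries and the summed CPM of 4 class II genes, and the lower panels the summed CPM of T cell, Kupffer cell and cholangiocyte markers. Fra1 mutant 2 has the highest class II sum, 625 CPM, and the lowest cholangiocyte sum, 28.7 CPM.

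Of the antigen processing genes, B2m had the largest estimate. B2m encodes beta-2 microglobulin, the light chain of class I molecules, and was the most abundant of the 38 genes per kilobase of exon. It was at 1605, 2651 and 1471 CPM in Fra2 controls and at 3927, 2063 and 3442 CPM in Fra2 mutants. Mutants 1 and 3 were above every control and mutant 2 was below the highest control (0.72 ± 0.26, adjusted p = 0.299). With 1 library left out, B2m in Fra2 had estimates from 0.53 (without Fra2 mutant 1) to 1.03 (without Fra2 control 2). In Fra1 it was at 2399, 1807 and 2114 CPM in controls and at 2298, 2415 and 2130.1 CPM in mutants, which overlap (0.11 ± 0.26, adjusted p = 0.880). Tap1, a subunit of the peptide transporter, and Psmb8 and Psmb9, catalytic subunits of the immunoproteasome, had estimates from -0.06 to 0.18 in Fra1 and from 0.05 to 0.39 in Fra2, with none past the test. Tap1 and Psmb9 share exonic bases on opposite strands.

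Among 118 other genes of the pathway, 96 were tested and 1 was called, Ifnlr1, higher in Fra1 mutants and over both strains, against 3.84% and 6.24% of all genes called in those contrasts. Ligand genes were at the limit of detection: 19 of 20 had no count in any of the 12 libraries, which allows up to 3 counts, or 0.147 to 0.196 CPM. The remaining ligand, Ifng, had 0 to 5 counts per library, with the 5 in Fra1 mutant 2. Ifnlr1 encodes the specific chain of the interferon lambda receptor (chr4:135686287-135708181, plus strand). It was at 0.131, 0.737 and 0.108 CPM in Fra1 controls and at 5.80, 0.737 and 6.20 CPM in Fra1 mutants. Fra1 controls 1 and 3 lay under the level of 3 counts in their libraries (0.196 and 0.161 CPM), so the size of the fold change is uncertain. Mutants 1 and 3 were far above the controls, and mutant 2 was level with the highest control. The log2 fold change was 3.62 ± 0.83 (adjusted p = 0.0338), and the mean effect of both strains was 2.30 ± 0.61 (adjusted p = 0.0489). In Fra2 its level was 0.276, 0.279 and 0.378 CPM in controls and 0.292, 0.927 and 0.623 CPM in mutants (0.97 ± 0.90, adjusted p = 0.766). The Fra1 call was lost without control 1, control 3, mutant 1 or mutant 3, where the adjusted p reached 0.143, in a fit of the 6 Fra1 libraries alone (0.133) and without the filter (0.0597). The call over both strains was lost without a filter (adjusted p = 0.0911) and in the 10 fits that left out 1 library other than Fra1 control 2 or Fra1 mutant 2. The Fra1 mutants with high Ifnlr1 were also those with high Oasl1 and with cholangiocyte marker sums of 321 and 158 CPM, beside 74.9 to 104 CPM in Fra1 controls. Fra2 control 1 and Fra2 mutant 2 had cholangiocyte sums of 199 and 201 CPM with Ifnlr1 at 0.276 and 0.927 CPM, and Fra2 mutant 1 had 65.1 CPM of Oasl1 with a sum of 74.3 CPM. The 5 cholangiocyte markers did not move together. Their Fra1 estimates ran from -0.66 for Sox9 to 1.05 for Spp1, and none was called. Fra1 mutant 1 was the highest of all 12 libraries for 1 of the 5, against 9.21% of all genes tested. Fra2 control 1 was the highest for 2, against 7.30%, and Fra2 mutant 2 for 2, against 9.48%. The part of cholangiocytes was not tested.

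The remaining receptors, Ifnar1, Ifnar2, Ifngr1, Ifngr2 and Il10rb, were expressed in every library and none was called. Ifnar1, a chain of the type I receptor, ran from 32.7 to 42.7 CPM in Fra1 controls and from 37.0 to 43.2 CPM in Fra1 mutants. No call was made among 10 signalling genes of the pathway, 16 sensing genes, 46 further interferon-stimulated genes or 18 genes of antigen presentation in either strain, against 3.84% of all genes in Fra1 and 1.07% in Fra2. Ikbke, a kinase that activates IRF3 and IRF7, had the smallest adjusted p of the sensing genes, with 34.8, 20.3 and 30.1 CPM in Fra2 controls and 59.9, 44.4 and 48.1 CPM in Fra2 mutants. All 3 mutants were higher (0.84 ± 0.27, adjusted p = 0.237), and over both strains the estimate was 0.70 ± 0.19 (adjusted p = 0.0601). Ifitm2, which blocks viral entry, was at 65.8, 53.0 and 61.1 CPM in Fra1 controls and at 16.3, 39.7 and 29.3 CPM in Fra1 mutants. All 3 mutants were lower (-1.08 ± 0.35, adjusted p = 0.139).

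Of the class I genes outside the list, H2-K1, a classical heavy chain, had estimates of opposite sign in the strains. It was at 1964, 1562 and 1889.9 CPM in Fra1 controls and at 1031, 1318 and 1176 CPM in Fra1 mutants. All 3 mutants were lower (-0.62 ± 0.24, adjusted p = 0.220). In Fra2 it was at 895, 1684 and 1017 CPM in controls and at 2140.3, 1509.5 and 2387 CPM in mutants (0.75 ± 0.24, adjusted p = 0.231). The difference between the effects was 1.37 ± 0.34 and did not pass (adjusted p = 0.416). Nlrc5, the transactivator of class I genes, had 25.3, 22.3 and 24.3 CPM in Fra2 controls and 30.3, 39.9 and 43.2 CPM in Fra2 mutants, with all mutants higher (0.66 ± 0.20, adjusted p = 0.183).

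The test of the difference between the strains' effects called none of the 38 genes, against 0.0355% of all genes. At an unadjusted p under 0.05 there was 1 of 38, Ifit1 (0.87 ± 0.35, adjusted p = 0.723), against 6.32% of all genes, and DESeq2 called none. The median difference, Fra2 minus Fra1, was 0.19, and 26 of 38 were above 0, beside -0.01 and 48.1% over all genes tested. Between the controls of the strains, edgeR called none of the 38 and 0% of all genes, and DESeq2 also called none of the 38. Unadjusted, there was 1 of 38, Gbp7, higher in Fra2 controls (0.54 ± 0.25, adjusted p = 0.866), against 5.35% of all genes. The median of the 38 between the controls was 0.04.

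Levels per kilobase of exon, which allow genes to be compared with each other, spread widely within the list. B2m led, with 2219 to 3656 CPM per kilobase as group means, followed by Bst2 with 143 to 182 and Iigp1 with 62.8 to 68.6. Oas3 was the lowest, at 0.276 to 0.402 CPM per kilobase. Oasl1 moved within this order, from 5.28 in Fra1 controls and 6.69 in Fra2 controls to 21.5 in Fra1 mutants and 25.1 in Fra2 mutants. Across the 12 libraries the highest level of a gene was a median of 2.48 times its lowest; 10 genes differed by less than 2-fold, and 3, Oasl1, Gbp2 and Ifi44, by more than 4-fold. Of the 38 genes, 16 share exonic bases with another annotated gene, 7 on the same strand and 9 on the opposite strand, and their counts are less certain.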

How the data were processed

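Liver RNA with poly(A) tails was made into stranded libraries, per the labels' protocols. Values are unnormalized integer counts per gene and library, as deposited by the authors. STAR 2.6.1a, RSEM, DESeq2 1.22.2 and bedtools 2.27.1, with build GRCm38, are named in the submitters' processing notes. The counting tool, its strand setting and how it handled multiply matching reads were not given in the sources used here.

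Groups came from the titles. Genes passing filterByExpr by group (14076) were scaled by TMM factors and fitted with 4 group means over 12 libraries in edgeR 4.0.16 (R 4.3.3; robust quasi-likelihood, two-sided). P-values were adjusted over all genes tested by Benjamini-Hochberg, and genes were called under 0.05. SEs were derived from the test statistic. CPM use the TMM-scaled totals. The scripts were tested on simulated data. No pair of libraries within a group agreed within sampling noise. Counting limits cover counting error only.

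The 38 genes, the pathway and marker lists, the tests and the alternatives were chosen with earlier results of these data known. Full values are given for genes called and for the 6 with the smallest p in each strain. They are also given for the 4 regulators and the 3 with the widest range within a group. From the other pathway lists they are given for genes called and up to 4 with the smallest p. Cell type markers are given mainly as sums and counts. The other genes described in full (Isg15, Ifit1, Zbp1, Oasl2, Iigp1, Irgm2, Ifnar1, Cxcl9, Cxcl10) were chosen after their values were seen. Results were recomputed with DESeq2 1.42.0, RLE factors or no scaling factor, no filter or at least 1 CPM in 3 libraries, only the libraries compared, a replicate block and each library left out. Leaving out Fra2 controls 1 and 2 together was chosen after seeing the data. Positions are from GENCODE M21 and promoters from RefSeq GRCm38.p6, both on the build of the counts. A gene of the pathway list is not reported here.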

Additional observations from a re-analysis of the deposited data

How the results depend on the processing

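The count of the 38 genes called in Fra1 was 1 with no scaling factor and 1 with DESeq2, in place of 0, and in Fra2 it was 1 with DESeq2 and 1 in a fit of only the libraries compared; the gene was Oasl1 each time. Over both strains the count was 0 without a filter and 0 without Fra2 controls 1 and 2, in place of 1. With 1 library left out at a time the count ran from 0 to 2 in Fra1 and from 1 to 2 over both strains, the 2 being Oasl1 and Igtp without Fra1 mutant 2, and it was 0 throughout in Fra2, for the difference and for the controls. In Fra1 without mutant 2, 2.96% of all genes were called. Shares of all genes are not given for the other alternative fits, so these counts do not show how the 38 genes compare with all genes there. Without a scaling factor the median of all genes in Fra1 was 0.15, so that changes there are relative to that shift. Estimates near 0 changed sign. Stat2 in Fra2 was 0.013 with no scaling factor, 0.28 without Fra2 controls 1 and 2, and -0.17 to 0.094 with 1 library left out. Irf1 in Fra2 was 0.0096 without Fra2 controls 1 and 2. Igtp in Fra1 ran from -0.69 to 0.39 with 1 library left out.

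Replicate numbers showed no sign of pairing the animals. Correlations of same-numbered libraries' deviations ran from -0.12 to 0.06, and those of different-numbered libraries from -0.14 to 0.11. With 3 libraries a group, a weak effect of litter or cage could go unseen, so these values cannot decide whether animals were paired. With the replicate number as a block, Igtp in Fra1 was -0.12, the counts of the 38 called were 0 in Fra1, 0 in Fra2, 0 for the difference and 1 over both strains, as without the block, and Ifnlr1 no longer passed in Fra1 (3.38, adjusted p = 0.199) or over both strains (2.14, adjusted p = 0.217). Ifnlr1 over both strains was also lost without a filter (adjusted p = 0.0911) and in the 10 fits that left out 1 library other than Fra1 control 2 or Fra1 mutant 2. The lowest count of any of the 38 genes in any library was 22, while nearly all ligand genes lay under the limit that 3 counts allow.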
